A study of Mus musculus with 6 samples.

Results

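Imprinted genes are expressed mainly or wholly from the copy inherited from one parent, and 38 of them were followed here in liver tumors and normal livers of mice. They were taken as a named list and sorted into 18 clusters by their position in the genome, of which 11 held a single listed gene. The array carried 74 probes for 37 of the 38 genes, out of 34741 named genes, and held no probe named Rian. The tissues were 3 normal livers and 3 liver tumors of male C3H/HeN mice aged 74 to 75 weeks, a strain in which liver tumors arise spontaneously. All animals belonged to a control group on a standard diet, and by the study's methods the tumors carried a Ha-ras mutation. Each tissue had a 1-color array of its own, with Cy3 as the dye.

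Imprinting rests on DNA methylation that is set in the germ line at a control region of each cluster and copied at every cell division. Many clusters pair growth-promoting genes expressed from the paternal copy with growth-limiting genes or long noncoding RNAs expressed from the maternal copy. In rodent liver several of them, H19, Igf2 and Dlk1 among them, are strongly expressed before birth and switched off soon after it. An array measures the RNA of both parental copies together, so which copy was transcribed is not known from these data.

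The scanner's software called 44.7% to 47.16% of the spots well above background in normal livers and 47.29% to 48.88% in liver tumors. The 3 normal livers lay on slide 1 and the 3 tumors on slide 2, so that an effect of the slide cannot be told apart from that of the tissue, and the local background of slide 1 (median 42 to 45 by array) exceeded that of slide 2 (22 to 23). An expression value below is the processed signal of a probe divided by the 75th percentile of its array, and levels of different probes are not compared. A gene was tested when the 3 arrays of a group, normal or tumor, all read a probe of it well above background, and it was called at an adjusted p under 0.05 in limma over all tested probes. The labels give the arrays as numbered samples of a group, so p-values measure the spread between these samples. In bulk tissue, fewer cells of a type and less RNA per cell cannot be told apart.

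Probe sequences are shown for H19 and Airn, long noncoding RNAs whose probes gave unequal results: the H19 probe used for the gene, the H19 probe that was dim on every array, and the pair of called Airn probes. Positions are on mm9, as the array files give them.
H19 probe A_55_P1961127, chr7:149761492-149761551, minus strand: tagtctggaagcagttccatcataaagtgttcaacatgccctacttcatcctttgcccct
H19 probe A_55_P1961125, chr7:149762417-149762476, minus strand: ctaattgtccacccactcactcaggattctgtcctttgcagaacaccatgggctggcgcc
Airn probe A_55_P2055199, chr17:13008078-13008137, plus strand: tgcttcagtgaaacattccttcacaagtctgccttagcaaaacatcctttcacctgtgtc
Airn probe A_55_P2122633, chr17:12944784-12944843, plus strand: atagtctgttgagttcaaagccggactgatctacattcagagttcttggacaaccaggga

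Of the 38 genes, 24 were tested, and 7 of these were called higher and 5 lower in the liver tumors, while 12 were not called. H19, Ascl2, Cd81, Peg3, Mest, Igf2r and Airn were the higher genes, and Slc22a18, Ppp1r9a, Ndn, Impact and Slc38a4 the lower ones. Among the 18568 genes tested on the array, 13.1% were called higher and 21.0% lower, against 29.2% and 20.8% of the tested imprinted genes. The share of lower calls among the imprinted genes was thus near that of the array. The median log2 fold change, tumor minus normal, was -0.11 over the tested imprinted genes and -0.13 over all tested genes. Of the 12 tested genes listed as expressed from the maternal copy in at least some tissues, 4 were called higher and 2 lower, and of the 11 listed for the paternal copy, 3 were called higher and 3 lower. Gnas, which gives transcripts from either copy, was the remaining tested gene and was not called. The groups did not overlap in 16 of the 24 genes, and in 51.8% of all genes tested.

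**Figure D1:**
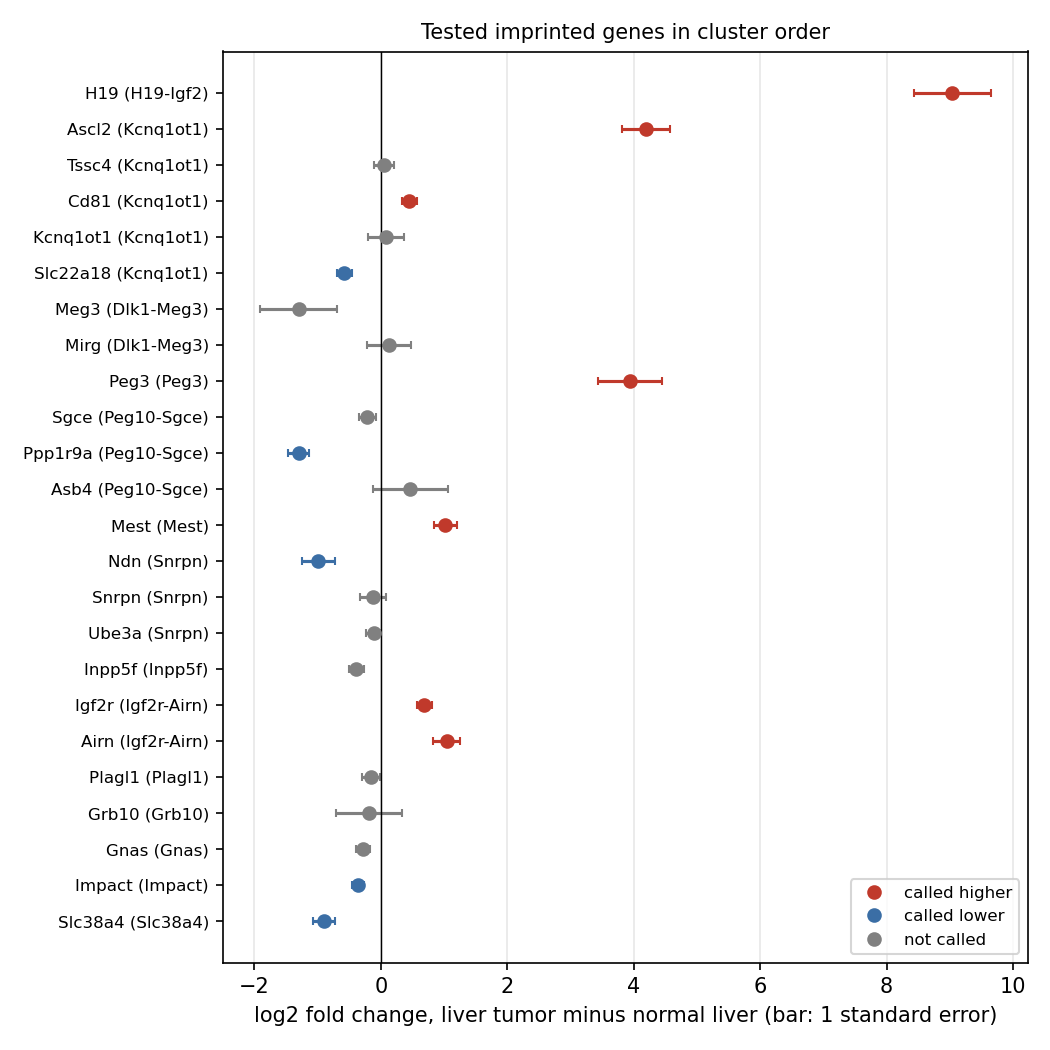
log2 fold change of the 24 tested imprinted genes, liver tumor minus normal liver, on the x axis with 1 standard error as the bar (n = 3 arrays per group), listed by cluster on the y axis. H19, Ascl2 and Peg3 lie far to the right at 9.04, 4.19 and 3.94, of which the values of Ascl2 and Peg3 are set against normal livers not well above background, where the bounds on the log2 scale are 2.88 and 2.28, and every other tested gene lies between -1.30 and 1.04.

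A set of 5 tested genes passed this filter through a single group, a way of passing that favours a difference between the groups. These were H19, Ascl2, Peg3 and Asb4, read on all tumor arrays, and Ndn, read on all normal arrays. When a gene had to be well above background on all 6 arrays, 19 imprinted genes were tested and 4 were called higher and 5 lower, Inpp5f being added to the lower ones. That is 47.4% of them, against 34.5% of the 16521 genes tested in the same way. The balance between directions also moved with the scaling. Scaled to the spike-in controls in place of the 75th percentile, the median of all tested genes moved from -0.13 to 0.03, 60.0% of the called genes of the array were higher in place of 38.5%, and 6 imprinted genes were called higher and 2 lower.

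H19, a maternally expressed long noncoding RNA that is abundant in fetal liver, showed the largest change of the list. Its brightest probe gave expression values of 0.25, 0.143 and 0.105 in the normal livers and 199, 67.2 and 40.9 in the liver tumors. The groups did not overlap, the signal was well above background in 1 of the 3 normal livers, and tumor 1 stood highest. The log2 fold change was 9.04 (standard error 0.61, limma adjusted p = 0.000322), and it was 8.40 without tumor 1. With normexp background correction, which adds an offset and draws dim values together, it was 7.21. The spread among the tumors was wide on the linear scale, and in the test that the study's methods name, run unpaired on linear values, H19 was not called, with an adjusted p of 0.203.

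The tested H19 probes all lay between mm9 positions 149761492 and 149762232, downstream of the probe printed second. Besides the probe printed first above, 5 further probes were tested, and each was well above background in all 3 tumors and in no normal liver. For such a probe the fold is given as a lower bound, with each normal array set to its detection limit, the dimmest signal that it called well above background, or to the probe's own value where that was higher. By this bound the tumors were at least 247-fold, 156-fold, 54.6-fold, 51.9-fold and 46.4-fold higher. The bound holds for the processed signal, and normexp gave smaller changes on each of these 5 probes. Tumor 1 was the highest and tumor 3 the lowest of the tumors on each of the 6 tested probes. The probe printed second starts at base 1575 of the reference transcript, while the first starts at base 2500. It had no signal well above background on the 6 arrays. Its values were 0.0334, 0.0502 and 0.0402 in the normal livers and 0.0973, 0.032 and 0.0615 in the tumors. Why this probe had no signal was not tested.

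**Figure D2:**
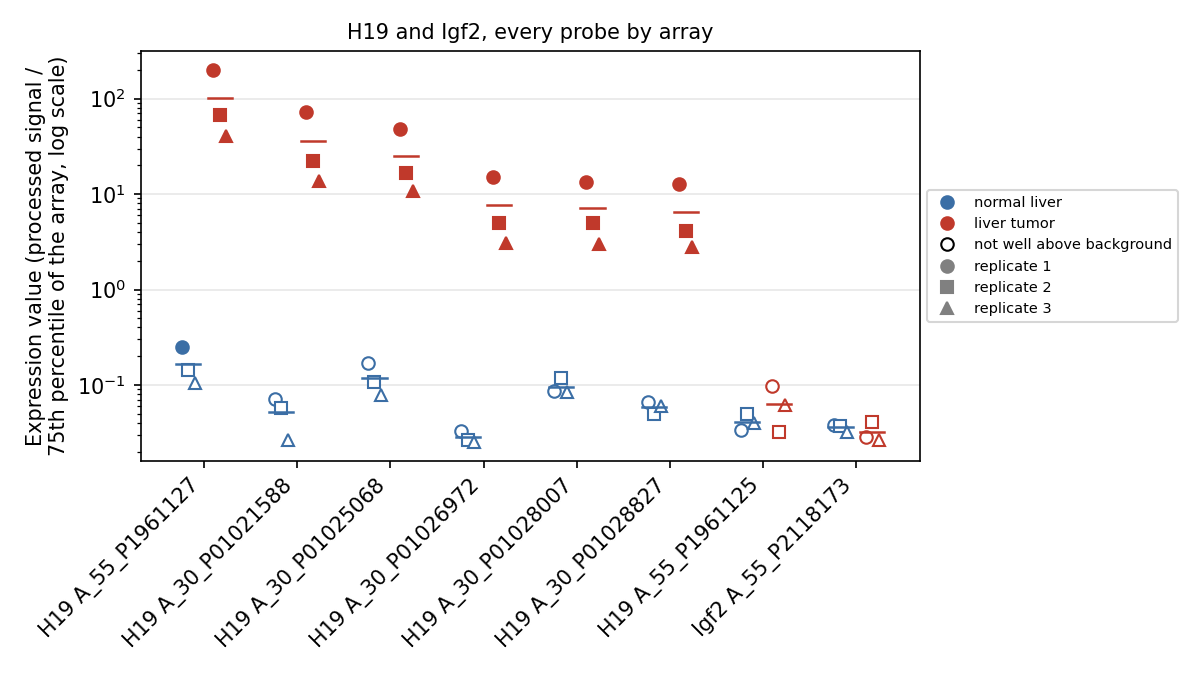
Expression value on a log scale for each of the 7 H19 probes and the Igf2 probe, by array, with the arithmetic mean of 3 arrays as a bar and open symbols where the spot was not well above background. In 6 H19 probes all tumor points lie far above the normal livers, whereas the last H19 probe and the Igf2 probe are open on all 6 arrays.

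Igf2, which encodes the fetal growth factor IGF-II, lies 72.6 kb from H19 and shares its enhancers and control region. Its probe read 0.0385, 0.0371 and 0.032 in the normal livers and 0.0285, 0.0411 and 0.0267 in the liver tumors. None of these 6 values was well above background, so no fold is given. H19 and Igf2 are usually transcribed from opposite parental copies, and here the signal of H19 rose while that of Igf2 was not detectable on these arrays. The array held a single Igf2 probe. A dim probe alone does not show that a gene is silent, as an H19 probe was also dim on every array.

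The H19 transcript also holds the hairpin of the microRNA miR-675, for which the sequences are shown because they are the part of H19 with a defined mature product. The array did not measure mature microRNAs, so these sequences carry no value here. They are RefSeq's, written as RNA, with the seed, bases 2 to 8, in capitals, and the 2 arms have different seeds.
miR-675-5p: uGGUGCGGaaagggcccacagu
miR-675-3p: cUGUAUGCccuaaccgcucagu

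In the same region of chromosome 7, the cluster of Kcnq1ot1 held Ascl2, Cd81, Tssc4, Kcnq1ot1, Slc22a18 and Phlda2. Kcnq1ot1 is the paternally expressed noncoding RNA whose transcription silences the maternally expressed genes around it on the same copy. It was read at 0.762, 0.967 and 0.888 in the normal livers and 1.21, 1.10 and 0.587 in the tumors. The groups overlapped, and the log2 fold change was 0.08 (standard error 0.28, limma adjusted p = 0.844). A second probe of Kcnq1ot1 was well above background on 1 normal and 2 tumor arrays and was not tested.

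Ascl2, a transcription factor of placental and intestinal stem cells, gave 0.0433, 0.0768 and 0.0283 in the normal livers, none of them well above background. In the liver tumors it gave 1.07, 0.832 and 0.643, all well above background, so that Ascl2 was at least 7.34-fold higher. Limma's adjusted p was 0.000889, and the call held without any single array, but both set the tumors against normal values not well above background. The bound holds for the processed signal. With normexp background correction the log2 fold change of Ascl2 was 1.40 in place of 4.19. Phlda2, a growth-limiting gene of the placenta, was read above background in 2 of the 3 tumors and in no normal liver. Its values were 0.0342, 0.0279 and 0.0247 in the normal livers and 0.155, 0.11 and 0.134 in the tumors. The Phlda2 groups did not overlap, and the gene was not among those tested. With each tumor at its own value, the tumors stood 1.16-fold above the normal detection limits. That is not a strict bound, since not every tumor was well above background.

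Of the remaining genes of this cluster, Cd81, a tetraspanin of the cell surface, was read at 136, 168 and 158 in the normal livers and at 213, 210 and 206 in the tumors. The groups were apart, and the log2 fold change was 0.45 (standard error 0.12, limma adjusted p = 0.0297). The call was lost when any single array was left out, with adjusted p from 0.0513 to 0.0806. Slc22a18, an organic cation transporter, moved the other way, from 110, 130 and 114 in the normal livers to 75.0, 78.1 and 82.9 in the tumors. Its log2 fold change was -0.58 (standard error 0.12, limma adjusted p = 0.0121). The call was lost with no filter on dim probes (adjusted p = 0.0613) and with spike-in scaling (adjusted p = 0.261). Tssc4, a splicing factor, overlapped between groups, with a log2 change of 0.05 (standard error 0.16). Cdkn1c, a maternally expressed inhibitor of cyclin-dependent kinases that lies in the same cluster but was not on the list of 38, was higher by 0.68 on the log2 scale (standard error 0.20, limma adjusted p = 0.0454), a call lost when any single array was left out (adjusted p from 0.0585 to 0.11).

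**Figure D3:**
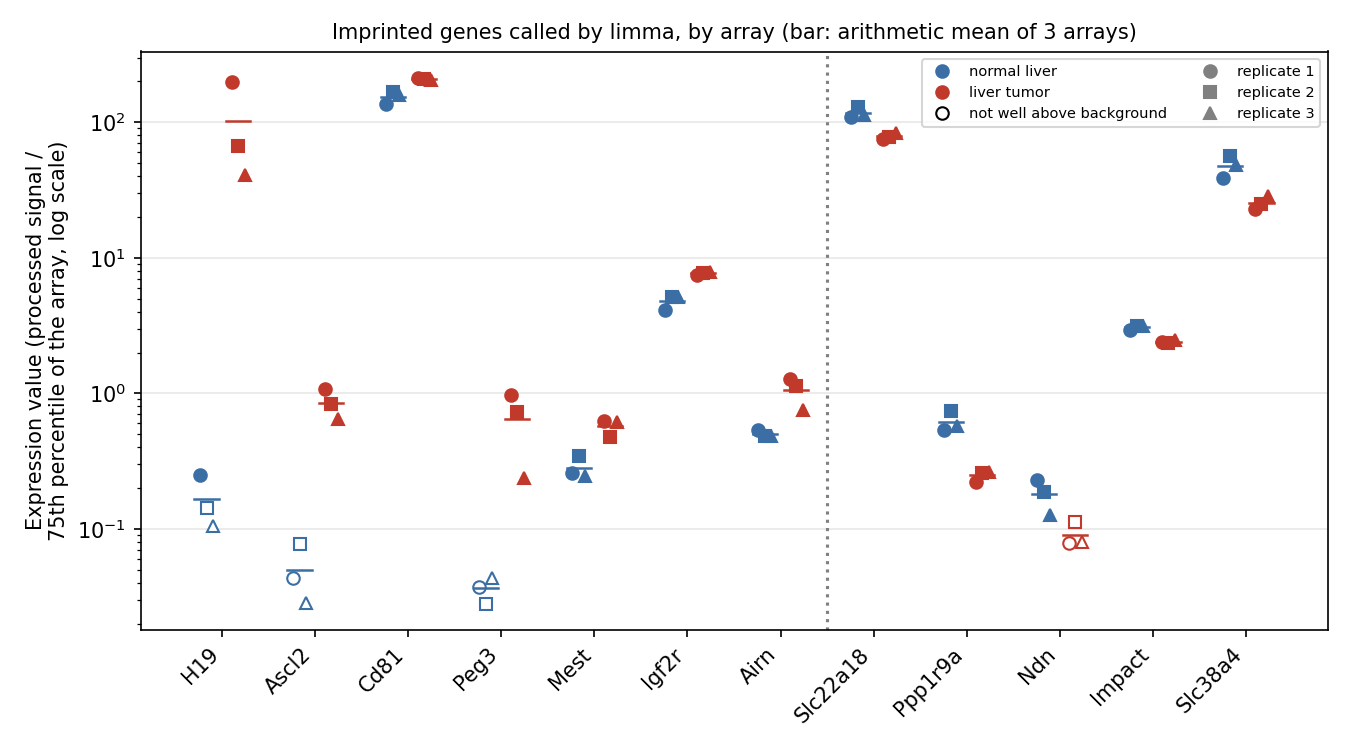
Expression value of the 12 called imprinted genes on a log scale, by array, with normal livers in blue, liver tumors in red, the arithmetic mean of 3 arrays as a bar and open symbols where the spot was not well above background. In H19, Ascl2 and Peg3 the normal livers are at or near the detection limit, in Ndn the tumors are below it, and in the other 8 genes both groups are well above background.

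The Igf2r-Airn cluster on chromosome 17 was the one in which a protein-coding gene and its antisense noncoding RNA were both called higher. Igf2r encodes the receptor that carries IGF-II to the lysosome for degradation, and Airn, transcribed on the opposite strand from within Igf2r, silences Igf2r on the paternal copy. By RefSeq annotation of GRCm38.p6 the genes share 28396 bases. Igf2r was read at 4.15, 5.10 and 5.13 in the normal livers and at 7.51, 7.77 and 7.84 in the tumors. All tumors lay above all normal livers, and the log2 fold change was 0.69 (standard error 0.12, limma adjusted p = 0.00858).

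Airn rose on both of its tested probes, printed above, by unequal amounts. The probe used for the gene read 0.534, 0.487 and 0.485 in the normal livers and 1.28, 1.13 and 0.754 in the tumors, for a log2 change of 1.04 (standard error 0.21, limma adjusted p = 0.0121). A probe at the lower coordinate, named by a single cDNA, read 0.0949, 0.341 and 0.276 in the normal livers and 3.99, 2.09 and 1.39 in the tumors. It was well above background in 2 of the 3 normal livers. Its log2 fold change was 3.45 (standard error 0.57, limma adjusted p = 0.00672), or 1.93 with normexp. Whether this probe read Airn RNA alone was not tested. On both probes tumor 1 was the highest and tumor 3 the lowest of the tumors. Of the other 2 Airn probes, 1 was well above background in a single tumor and 1 on no array.

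Genes within 500 kb of the listed genes of a cluster were examined in the same way. Around Igf2r and Airn, 14 neighbours were tested and 8 were called lower, against 21.0% of all genes, while the other 6 were not called. Among the lower genes were Smok2a, a testis-type kinase that was at least 2.03-fold lower, Acat2 (log2 fold change -1.57, standard error 0.19) and Acat3 (-1.20, standard error 0.17), both cytosolic thiolases, and Sod2 (-1.10, standard error 0.16), the mitochondrial superoxide dismutase. Igf2r and Airn thus stood apart in direction from every called neighbour.

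**Figure D4:**
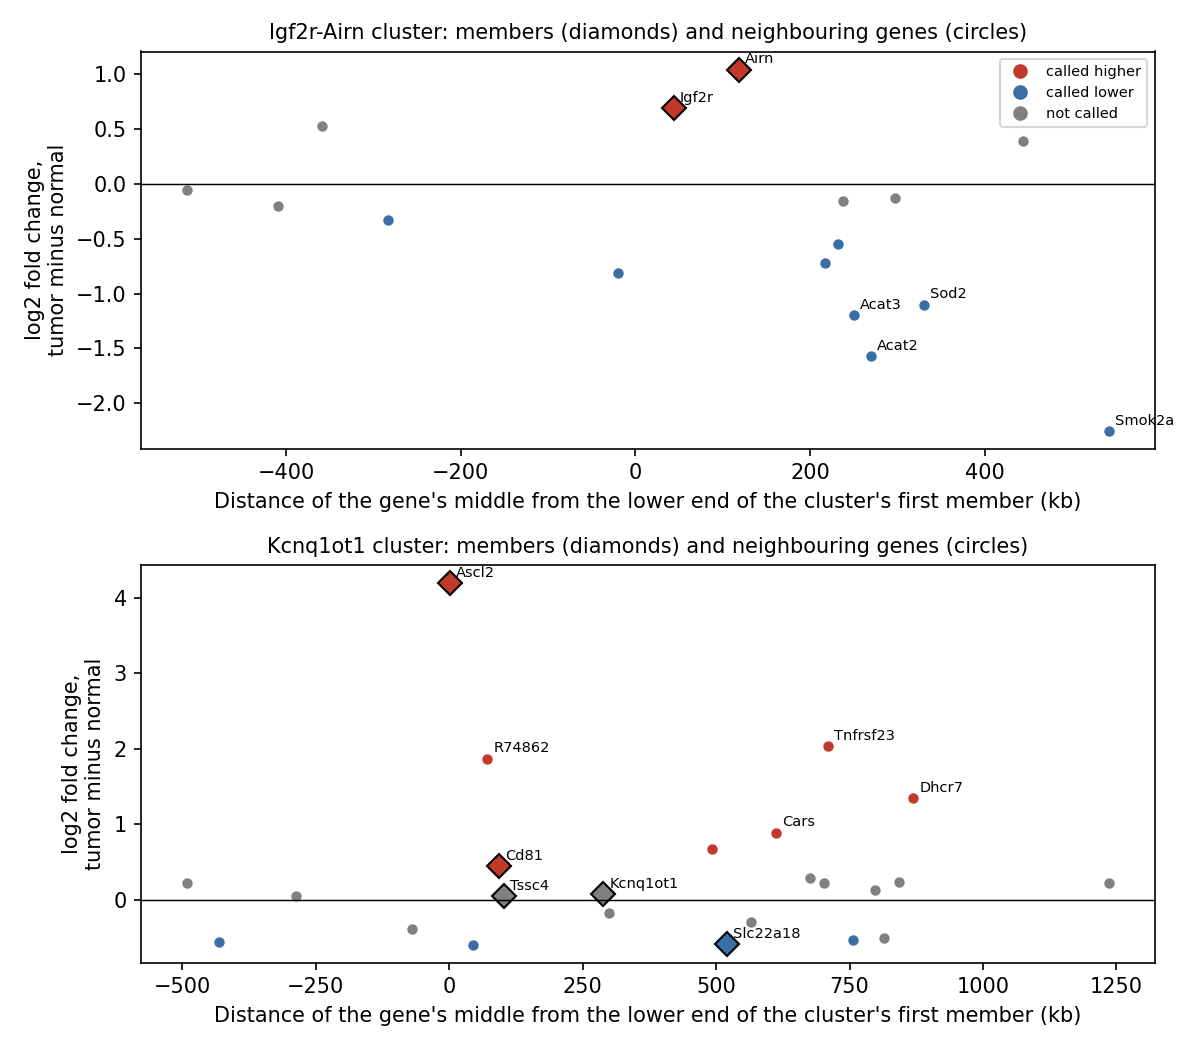
log2 fold change, liver tumor minus normal liver, of listed genes (diamonds) and tested neighbouring genes (circles) against their distance in kb from the lower end of the first listed gene, for the clusters of Igf2r-Airn (top) and Kcnq1ot1 (bottom). Listed genes and up to 4 called neighbours with the largest change are named. In the top panel the 2 diamonds are called higher and the 8 called circles are lower, while in the bottom panel 5 circles are called higher and 3 lower.

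Around Kcnq1ot1 the neighbours went both ways, with 5 of 19 called higher and 3 lower. Tnfrsf23, a decoy receptor, was higher by 2.04 on the log2 scale (standard error 0.32), but it was well above background in 1 of the 3 normal livers and the change was 0.83 with normexp. R74862 (1.87, standard error 0.33), Dhcr7, an enzyme of cholesterol synthesis (1.35, standard error 0.22), and Cars, a transfer RNA ligase (0.89, standard error 0.18), were higher with both groups well above background. Around H19 and Igf2, whose window overlaps this one, 3 of 14 were called higher and 4 lower. Dusp8 of that window, a phosphatase of MAP kinases, was higher by 2.35 (standard error 0.56), or 0.81 with normexp, and it too was well above background in 1 of the 3 normal livers. Keratin-associated Krtap5-2 and Krtap5-5 fell by 1.24 and 0.79. Over all clusters with neighbours tested, 10 of 73 neighbours were called higher and 23 lower, beside 13.1% and 21.0% of all genes tested.

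In the Dlk1-Meg3 cluster on chromosome 12 the tumors differed widely among themselves. Dlk1, a paternally expressed membrane protein of fetal hepatoblasts, lies 77.7 kb from Meg3, a maternally expressed noncoding RNA. On its brighter probe Dlk1 read 0.0369, 0.0305 and 0.0272 in the normal livers and 0.0753, 1.81 and 0.23 in the tumors. Only tumors 2 and 3 were well above background, the groups did not overlap, and the tumor mean exceeded the normal one by at least 2.79-fold. On the other probe tumor 2 alone was read, at 0.282, and Dlk1 was therefore not tested.

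Meg3 was present in every normal liver, at 2.34, 2.54 and 2.33, and read 0.362, 2.22 and 1.15 in the tumors. Tumor 2, the one with the highest Dlk1, was close to the normal livers, while tumor 1 was far below them. The log2 fold change of Meg3 was -1.30 (standard error 0.61, limma adjusted p = 0.146), so the gene was not called, although the groups did not overlap. Without tumor 2 it was -1.89 with an adjusted p of 0.0392, and without tumor 1 it was -0.59 with an adjusted p of 0.176. A second tested Meg3 probe gave -0.83 (standard error 0.57, limma adjusted p = 0.301), again with tumor 1 lowest, at 0.0536.

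Mirg, a noncoding RNA further along this cluster and host of many microRNAs, gave 0.335, 0.3 and 0.211 in the normal livers and 0.191, 0.468 and 0.309 in the tumors, and the groups overlapped. By RefSeq positions, whatever the strand, 10 microRNA hairpins lie inside Mirg, 15 inside Rtl1, 3 inside Rian and 1 inside Meg3. Most of the hairpins inside Rtl1 are on the plus strand, while the Rtl1 probe is on the minus strand, so these are not part of its transcript. Rtl1, a paternally expressed gene derived from a retrotransposon, had no signal well above background on the 6 arrays. Tumor 1 was the lowest tumor on the brighter probes of Dlk1, Meg3 and Mirg, and the highest for H19, Ascl2, Peg3 and Airn.

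**Figure D5:**
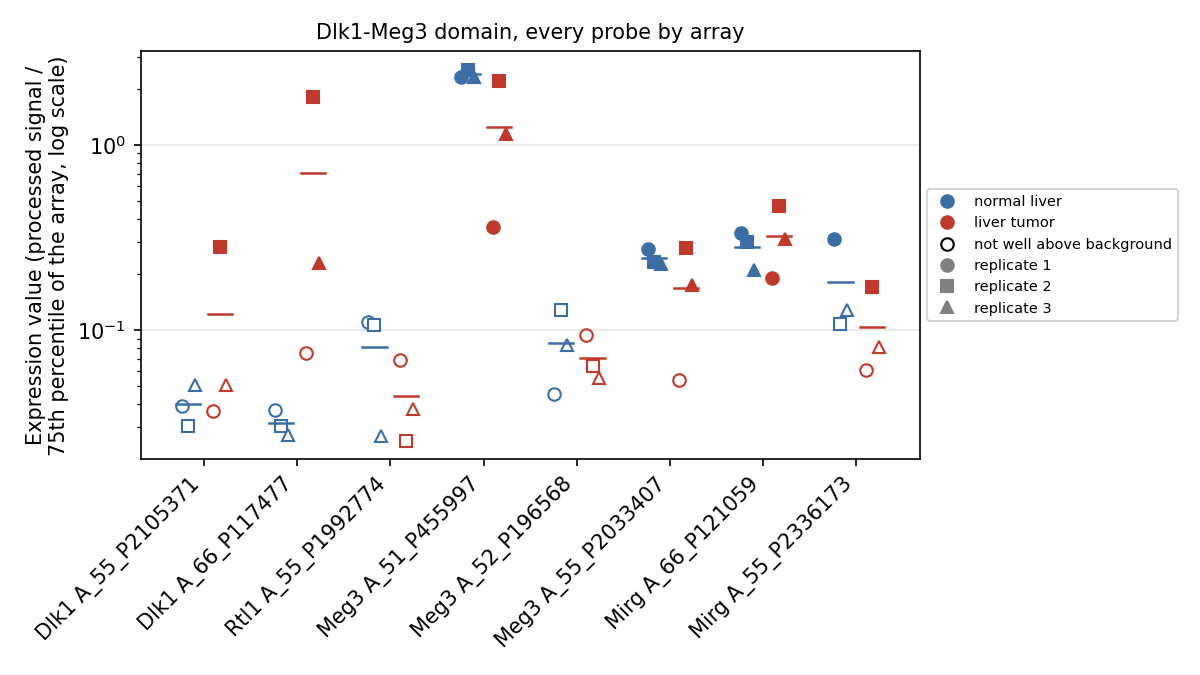
Expression value on a log scale for every probe of the Dlk1-Meg3 cluster, by array, with open symbols where the spot was not well above background and the arithmetic mean of 3 arrays as a bar. Tumor 2 (red squares) is the highest tumor for Dlk1, for both tested Meg3 probes and for Mirg, and tumor 1 (red circles) is the lowest tumor there.

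Peg3, a paternally expressed zinc finger protein, was, with H19 and Ascl2, among the genes that were read in the tumors and hardly or not at all in normal liver. It read 0.0374, 0.0281 and 0.0434 in the normal livers, none well above background, and 0.965, 0.728 and 0.237 in the liver tumors. Every tumor was well above background, so that Peg3 was at least 4.86-fold higher. The limma adjusted p of 0.00322 set the tumors against normal values not well above background. A second probe was read in tumors 1 and 2 but not in tumor 3. With normexp background correction the log2 fold change was 1.14 in place of 3.94.

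Peg3 shares its start region with Usp29, a ubiquitin protease gene transcribed in the other direction. The facing ends of the annotated genes lie 97 bases apart. The promoter windows use starts that lie inside these genes, so the starts of the windows are further apart. The Peg3 promoter is printed because the 263 bases of it that also belong to the promoter window of Usp29, in capitals, stand in the promoter windows of both genes, whereas their detection differed. Usp29 had no signal well above background on the 6 arrays. The window runs from 250 bases before to 50 bases after the start, from RefSeq on GRCm38.p6 at chr7:6730370-6730669, minus strand.
Peg3 promoter: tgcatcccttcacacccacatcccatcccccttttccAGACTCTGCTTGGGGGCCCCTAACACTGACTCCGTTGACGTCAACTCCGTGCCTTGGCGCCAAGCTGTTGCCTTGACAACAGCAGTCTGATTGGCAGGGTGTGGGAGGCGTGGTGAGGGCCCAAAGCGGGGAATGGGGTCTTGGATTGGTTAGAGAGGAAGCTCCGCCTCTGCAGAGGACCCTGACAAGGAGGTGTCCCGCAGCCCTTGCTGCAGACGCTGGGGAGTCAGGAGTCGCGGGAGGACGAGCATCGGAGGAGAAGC
Zim1, the maternally expressed neighbour of Peg3, was read in tumor 2 alone, at 0.124, on 1 of its 2 probes. Of 12 tested neighbours of this cluster, 1 was called higher, Olfr1348 (log2 fold change 1.22, standard error 0.33), and 2 lower, Zim3 (-0.64, standard error 0.17) and Olfr1347 (-0.52, standard error 0.15). Among all genes tested, 13.1% were called higher and 21.0% lower. Olfr1348 was well above background in 1 of the 3 normal livers and Zim3 in 1 of the 3 tumors, and with normexp their changes were 0.27 and -0.24.

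Promoter windows of the same kind were found for 33 of the 38 genes, 51 windows in all, and none for H19. They held a median of 14 CpG pairs, against 7 over all 32851 windows of the table, and a median GC content of 57.7% against 52.7%. The letters TGCCGC, the core motif of the zinc finger protein ZFP57 that protects imprints, were searched on both strands and stood in 11 windows, or 21.6%, against 11.6% of all windows. TATAAA, also on both strands, stood in 21.6% against 13.6%. The window of Igf2r held 34 CpG pairs and that of Airn 3. Windows of a gene can overlap, as some of Mest and of Gnas do, so that a site can be counted more than once. The shares were not adjusted for the higher CpG content of these windows. Matches of letters are a description of the windows and carry no expression value.

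Mest, a paternally expressed enzyme of the alpha/beta hydrolase fold associated with growth and adipose expansion, was also higher. It read 0.257, 0.344 and 0.247 in the normal livers and 0.624, 0.479 and 0.611 in the tumors. The groups were apart, with a log2 change of 1.02 (standard error 0.18, limma adjusted p = 0.00795). A second tested probe overlapped between groups, at 0.70 (standard error 0.46, limma adjusted p = 0.287), and the remaining probe was dim on all arrays. With the mean of the tested probes in place of the brightest, Mest was not called. The hairpin of miR-335 lies inside Mest. Of 6 tested neighbours, Tmem209, a nuclear envelope protein, was called higher (0.83, standard error 0.13), beside 13.1% of all genes tested. Its change was 0.20 with normexp, and it was well above background in 2 of the 3 normal livers.

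Genes that were lower came from different clusters, and in each of them the groups did not overlap. Slc38a4, a paternally expressed transporter of amino acids that is abundant in liver, read 38.6, 56.0 and 48.4 in the normal livers and 23.0, 24.9 and 28.4 in the tumors. Its log2 fold change was -0.90 (standard error 0.17, limma adjusted p = 0.0101). The call held without any single array and was lost with spike-in scaling (adjusted p = 0.0642). The related transporter genes beside it went both ways, Slc38a1 at -0.66 (standard error 0.17) and Slc38a2 at 0.53 (standard error 0.13). Ppp1r9a, or neurabin, an actin-binding protein expressed from the maternal copy in some tissues, read 0.537, 0.735 and 0.572 in the normal livers and 0.221, 0.259 and 0.264 in the tumors. Its log2 fold change was -1.30 (standard error 0.16, limma adjusted p = 0.0025). In the same cluster, Sgce, a sarcoglycan, gave -0.21 (standard error 0.13, limma adjusted p = 0.255) and Asb4, read well above background in 1 of 3 normal livers, gave 0.47 (standard error 0.60, limma adjusted p = 0.586), while Peg10 had no signal well above background on the 6 arrays. Of the 6 tested neighbours there, 2 were called lower, beside 21.0% of all genes tested. These were Pon1, a plasma lipolactonase made in the liver (-3.25, standard error 0.72), and Casd1 (-0.71, standard error 0.11).

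Impact, a paternally expressed regulator of translation under amino acid shortage, read 2.95, 3.12 and 3.16 in the normal livers and 2.38, 2.37 and 2.46 in the tumors. The log2 fold change was -0.36 (standard error 0.10, limma adjusted p = 0.0343), and the call was lost when any single array was left out, with adjusted p from 0.0605 to 0.108. A second probe gave -0.71 (standard error 0.15, limma adjusted p = 0.0153). All 5 tested neighbours of Impact were called lower, beside 21.0% of all genes tested. Among them were Ttc39c (-2.40, standard error 0.37), Cabyr (-2.35, standard error 0.40, or -1.09 with normexp) and Lama3, a laminin chain (-2.29, standard error 0.30). Hrh4, a histamine receptor, was lower by less, at -0.55 (standard error 0.13).

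Ndn, or necdin, a paternally expressed growth suppressor of neurons in the Snrpn cluster, read 0.231, 0.187 and 0.127 in the normal livers and 0.0779, 0.113 and 0.0803 in the tumors. All normal livers and no tumor read it well above background, so that it was at least 1.60-fold lower. The limma adjusted p of 0.0286 set the normal livers against tumor values not well above background. The call was lost without normal liver 1 or 2 or tumor 1 or 3, with adjusted p from 0.0738 to 0.0858. Snrpn, a splicing protein, and Ube3a, a ubiquitin ligase imprinted in neurons, were near 0 in the same cluster, at -0.12 (standard error 0.21) and -0.11 (standard error 0.12). Magel2, a partner of ubiquitin ligases, was read in tumor 2 alone, at 0.243, and Mkrn3 on no array.

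Levels of several other cell types moved beside these genes. The summed level of 8 markers of stellate cells and fibroblasts was 89.5 to 106 in the normal livers and 29.0 to 49.8 in the tumors, with 5 of the 8 called lower and 1, Col1a1, higher. Such a sum weights bright probes, and Dcn, whose probe read 83.2 on average in the normal livers, is on this list and also among the further imprinted genes. The summed level of 7 macrophage markers was 72.8 to 116 against 37.0 to 58.4, with 4 of 6 tested markers lower, and that of 7 endothelial markers 104 to 117 against 80.4 to 89.0, with 2 of 7 lower. Hepatocyte markers summed to 5650 to 6350 in the normal livers and 5930 to 6050 in the tumors, with 1 of 6 higher and 1 lower. For lymphocytes the sums were 7.51 to 9.24 and 7.47 to 9.69, for cholangiocytes 2.33 to 2.93 and 1.89 to 2.19, and for neutrophils 6.12 to 8.10 and 5.69 to 18.5. Beside these counts, 13.1% of all genes tested were called higher and 21.0% lower. No marker list was at 0, and the part of other cell types in the changes of the imprinted genes was not tested.

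The other tested genes of the list were not called. Grb10, an adaptor that dampens insulin receptor signalling, read 0.619, 0.503 and 0.896 in the normal livers and 1.32, 0.401 and 0.358 in the tumors. Tumor 1 was the highest of all 6 and tumors 2 and 3 the lowest, and the log2 fold change was -0.19 (standard error 0.52), or -0.79 without tumor 1 (limma adjusted p = 0.0734). Gnas, the alpha subunit of the stimulatory G protein, read 75.5, 84.4 and 78.7 against 60.7, 67.4 and 69.1, for a log2 change of -0.28 (standard error 0.11, limma adjusted p = 0.102). Its 3 other probes, all dim on every array, were named by other Gnas transcripts. Inpp5f, an inositol phosphatase, read 0.945, 0.812 and 0.913 against 0.613, 0.704 and 0.726, for a log2 change of -0.39 (standard error 0.12, limma adjusted p = 0.052). A probe named by another Inpp5f cDNA was dim on all arrays. Plagl1, a zinc finger protein of a network of imprinted growth genes, had 4 tested probes with log2 fold changes between -0.24 and 0.36 and limma adjusted p between 0.315 and 0.421.

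Besides the genes given above as dim on every array, which were Igf2, Rtl1, Usp29, Peg10 and Mkrn3, the same held for Nap1l5, Rasgrf1 and Zdbf2, 8 genes in all. Nap1l5 encodes a nucleosome assembly protein, Rasgrf1 an exchange factor of Ras and Zdbf2 a zinc finger protein active in brain. Nnat, a membrane proteolipid of the brain, was read in tumor 1 alone, at 0.144, on 1 of its 2 probes. Phlda2, Dlk1, Zim1, Magel2 and Nnat were thus each read in 1 or 2 tumors and in no normal liver.

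Further imprinted genes outside the list of 38 were taken from a second list of 43, of which 29 were tested. Of these, 4 were called higher and 10 lower, with a median log2 fold change of -0.38, beside 13.1% higher, 21.0% lower and a median of -0.13 over all genes tested. The largest changes were those of Ddc, an aromatic amino acid decarboxylase beside Grb10 (-2.88, standard error 0.61), Blcap, an apoptosis-related gene that hosts Nnat (1.74, standard error 0.29), Dcn, the proteoglycan decorin (-1.64, standard error 0.28), and Dhcr7 (1.35, standard error 0.22). Ddc read at least 77.0 in every normal liver and 4.51, 19.5 and 24.0 in the tumors, where tumor 1 was again the lowest. Blcap read 17.1, 15.6 and 19.4 against 93.0, 44.6 and 46.8, with tumor 1 the highest.

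A list of 21 genes held those that maintain imprints, those that regulate H19 and a few that are switched off in liver after birth as H19 is. Of these, 18 were tested, 3 were called higher and 4 lower, with a median log2 fold change of -0.09. Over all genes tested, 13.1% were called higher and 21.0% lower, with a median of -0.13. Of the 3 higher genes, Afp and Gpc3 were fetal liver genes of the last kind, and Uhrf1 was the other. Afp read 0.132, 0.149 and 0.706 in the normal livers and 190, 181 and 134 in the tumors, for a log2 change of 9.44 (standard error 0.63). Gpc3, well above background in no normal liver, was at least 160-fold higher. Uhrf1, which brings the maintenance methyltransferase to newly copied DNA, read 0.0758, 0.173 and 0.175 in the normal livers, of which 2 were well above background, and 1.14, 1.38 and 1.33 in the tumors. Its log2 change was 3.28 (standard error 0.33), or 1.45 with normexp, while that methyltransferase, Dnmt1, stood at 0.04 (standard error 0.12). The 4 lower genes were Tet1, an enzyme of DNA demethylation (-1.82, standard error 0.28), Zfp445, a zinc finger protein that protects imprints (-1.33, standard error 0.26), Dnmt3b, a methyltransferase that sets new DNA methylation (-1.24, standard error 0.23), and Zbtb20.

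Zfp445, Dnmt3b and the genes that follow were chosen after their values were seen. Zbtb20, the repressor of Afp in adult liver, read 15.8 to 19.7 in the normal livers and 6.10, 9.43 and 7.77 in the tumors, for a log2 change of -1.22 (standard error 0.19, limma adjusted p = 0.00514). Zhx2, which lowers H19, Afp and Gpc3 after birth in mouse liver, had no signal well above background on the 6 arrays. Ctcf, whose protein binds the H19 control region on the maternal copy, gave -0.13 (standard error 0.10), and Zfp57 gave 0.43 (standard error 0.14, limma adjusted p = 0.0539).

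Around the growth factor itself, 12 of 16 genes of the IGF axis were tested, with 1 called higher and 4 lower. Over all genes tested, 13.1% were called higher and 21.0% lower. Igfbp1, a binding protein that liver secretes in fasting, read 37.2, 118 and 43.3 in the normal livers and 994, 1060 and 645 in the tumors, for a log2 change of 3.94 (standard error 0.45). Igf1, the main circulating growth factor of this family after birth, read 204, 226 and 236 against 43.2, 72.9 and 112, for a log2 change of -1.65 (standard error 0.33). Igfals, which holds IGF-I in the serum complex, fell by 3.01 (standard error 0.70), with tumor 1 the lowest at 0.505, and Igfbp5 fell by 1.66 (standard error 0.43). The call of Igfals was lost without any one of the normal livers (limma adjusted p from 0.0568 to 0.0599), and that of Igfbp5 without normal liver 1 or 2 or tumor 1 or 2 (0.0537 to 0.0807). The receptor Igf1r was not called, at -0.46 (standard error 0.23, limma adjusted p = 0.17).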

How the data were processed

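RNA of 3 normal livers and 3 liver tumors was run on SurePrint G3 Mouse GE arrays. The deposited intensities are the output of Feature Extraction (10.7.3.1 in the file headers, 12.0.3.1 in the submitters' processing notes): a processed signal, background subtracted and detrended, with a surrogate value where it does not exceed background, and the mean signal and local background of each spot. A surrogate value makes the fitted fold of a dim probe depend on the background. The authors also deposited a ratio of processed signal to the array's 75th percentile, used as an alternative. Flags of the scanner software, deposited beside the intensities, mark spots as outliers, saturated or well above background. No spot was saturated.

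Each deposited processed signal was divided by the 75th percentile over all spots of its array and put on the log2 scale. Control and outlier spots were left out, spots of a probe were averaged, and 24902 of 55681 probes, those that the 3 arrays of a group all read well above background, went into limma 3.58.1 in R 4.3.3 (lmFit, eBayes, two-sided, Benjamini-Hochberg adjustment over these probes, threshold 0.05). The probe with the highest mean over the 6 arrays stood for its gene. Python 3.11.15, pandas 2.3.3, numpy 2.4.6 and matplotlib 3.10.9 were used for tables and figures. Genes were named through the probe's accession in RefSeq of GRCm38.p6 for 27235 probes, by symbol for 3581 and by synonym for 565, and 24300 kept the design's name. Probe positions are on mm9, and positions of genes, promoters and hairpins on GRCm38.p6. The fit was tested on simulated data.

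The members and gene lists were chosen with earlier results of these data known. All 38 genes were accounted for, with values by array for those called or changed by 2-fold or more. Of the other lists and of the neighbours of each cluster, up to 4 called genes with the largest change were named. Cdkn1c, Zbtb20, Zfp445, Dnmt3b, Zhx2, Ctcf, Zfp57, Dnmt1, Igf1r and Col1a1 were named after their values were seen. Of the genes counted, 1 is not reported here. Alternatives were normexp with an offset of 50, quantile and spike-in scaling, no filter, a stricter filter, the deposited ratios, the mean of a gene's probes, a trend in eBayes, the replicate number as a block, the methods' t-test in unpaired and paired form, the methods' criteria (group means at least 2-fold apart, the higher over 1.0, and an unadjusted p under 0.05 in the unpaired test) and leaving out each array. In both forms of the t-test p-values were adjusted here, whereas for expression the methods name the paired form and state no adjustment. The number of arrays limits the precision.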

Additional observations from a re-analysis of the deposited data

How the results depend on the processing

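No called imprinted gene changed direction under the alternatives run. H19, Ascl2 and Peg3 were called under each alternative that tested them, except the methods' t-tests and criteria for H19 and Peg3 and the paired test and criteria for Ascl2. The starting point was 7 imprinted genes called higher and 5 lower, 6340 genes on the array and 14 further imprinted genes. It also held 7 genes of the imprint maintenance, H19 regulation and fetal liver list, 33 neighbours and 5 genes of the IGF axis. No filter on dim probes left 2 lower, 3498 genes, 7 further imprinted genes, 17 neighbours and 3 of the IGF axis. Spike-in scaling left 2 lower, 3939 genes, 7 further imprinted genes and 17 neighbours. Normexp left 3 lower, and well above background on all arrays left 4 higher. The methods' unpaired t-test left 4 higher, 3 lower, 4135 genes, 8 further imprinted genes and 18 neighbours. The methods' criteria left 1 higher (Airn), 0 lower, 1696 genes, 6 further imprinted genes, 9 neighbours and 3 of the IGF axis, where limma called 5 imprinted genes lower and the paired t-test had 5 lower at an unadjusted p under 0.05.

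The labels do not say whether arrays of the same number share an animal. In their deviations from the group means, same-numbered arrays correlated at 0.068, 0.131 and 0.05, and arrays of unlike number at -0.138 to 0.055. With 3 arrays per group these values cannot decide whether the samples were paired. As a replicate block in limma the replicate numbers left 6 imprinted genes higher and 4 lower and 5409 genes in all. In the methods' paired t-test, which uses this replicate block, 0 genes were left in every list after adjustment. At an unadjusted p under 0.05 that test had 3 imprinted genes higher and 5 lower, 9 further imprinted genes and 5768 genes in all. It also had 5 of the imprint maintenance, H19 regulation and fetal liver list, 20 neighbours and 5 of the IGF axis.

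Leaving out 1 array left 6 imprinted genes higher each time, 3 to 5 lower, 3869 to 5532 genes and 7 to 12 further imprinted genes. It left 7 to 8 of the imprint maintenance, H19 regulation and fetal liver list, 18 to 27 neighbours and 3 to 6 of the IGF axis. The lowest counts came without normal liver 2 for all genes (3869), further imprinted genes (7) and neighbours (18), and without normal liver 1 for the IGF axis (3). The 3 lower imprinted genes came without normal liver 1 or 2 or tumor 1 or 3. Cd81 lost its call under 11 of 18 alternatives, Impact under 13 of 18, Ndn under 9 of 17 and Slc22a18 and Slc38a4 under 4 of 18 each. Why any count moved was not tested, beyond the fewer arrays or probes that an alternative holds. Probes near background limit the sizes given for H19, Ascl2, Peg3, Dlk1, Phlda2 and Ndn, for the Airn probe at the lower coordinate, and for Afp, Gpc3, Uhrf1, Tnfrsf23, Dusp8, Olfr1348, Zim3, Tmem209, Cabyr and Smok2a.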
